A study of Mus musculus and Rattus norvegicus with 6 samples.

Results

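The miR-216 and miR-217 cluster is a group of neighbouring microRNA (miRNA) hairpins, and its mature products were followed here in the retinas of 2 rodents. Members were all names that start with miR-216 or miR-217, with any letter and either arm; the 3 main ones are mmu-miR-217-5p, mmu-miR-216b-5p and mmu-miR-216a-5p in the mouse table, and names are given below without the species prefix. This gave 8 of the 2137 names in both count tables together, with 6 of 764 names in the rat table and 8 of 1915 in the mouse table. The 6 rat names were all in the mouse table too, and miR-216c-5p and miR-216c-3p were listed for mouse only. The retinas came from Sprague Dawley rats and C57BL/6 mice, wild type and 9 weeks old in both species, with 3 small RNA libraries for rat (r1, r2 and r4) and 3 for mouse (m1, m3 and m4). Strain changed with species, each species has its own table, and whether all libraries were made together is not known here, so strain, table and library making cannot be told apart from species. The cluster was picked because it had been seen to be lower in rat in these same libraries. For this reason the levels and differences between species below are a description of the members, and no test is given for them.

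A miRNA is cut from the stem of a hairpin RNA, and the product of either side, the 5p or the 3p arm, can be loaded into an Argonaute protein and lower the output of messenger RNAs that pair with its seed, the bases near its 5′ end. The miR-216 and miR-217 hairpins are best known as miRNAs of the exocrine pancreas. In zebrafish retina, miR-216a acts on snx5, a regulator of Notch signalling. In human endothelial cells miR-217 lowers the deacetylase SIRT1.

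All 8 names had a mature sequence in the RefSeq table of the mouse build GRCm38.p6. The 5p arms are shown because they held most reads of the locus. Capitals mark the seed, bases 2 to 8.
miR-217-5p: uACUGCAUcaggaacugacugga
miR-216b-5p: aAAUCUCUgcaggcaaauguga
miR-216a-5p: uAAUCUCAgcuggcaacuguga
The 5p arms of miR-216a and miR-216b were alike in 18 of 22 bases. Counted from 1 at the 5′ end, the substitutions with the miR-216a base first were U1A, A8U, U11A and C17A. The difference at the last seed base gave each its own seed, and both shared bases 2 to 7. Among the 1738 mature entries of the mouse RefSeq table, none from another hairpin shared bases 2 to 7 with either of them or with miR-217-5p; rat sequences were not searched.

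The hairpins of miR-216b, miR-216a and miR-217 lay on the plus strand of mouse chromosome 11, in the order Mir216b (chr11:28746191-28746276), Mir216a (chr11:28757012-28757083) and Mir217 (chr11:28763728-28763835). The gap was 10735 bases between Mir216b and Mir216a and 6644 bases between Mir216a and Mir217. In the hairpins printed next, capitals mark the 5p and the 3p arm, so that the reads of each arm can be placed.
Mir216b: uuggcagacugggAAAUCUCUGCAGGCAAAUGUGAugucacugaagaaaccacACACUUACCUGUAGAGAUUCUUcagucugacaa
Mir216a: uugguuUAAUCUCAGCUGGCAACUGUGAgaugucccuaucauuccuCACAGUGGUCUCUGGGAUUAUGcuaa
Mir217: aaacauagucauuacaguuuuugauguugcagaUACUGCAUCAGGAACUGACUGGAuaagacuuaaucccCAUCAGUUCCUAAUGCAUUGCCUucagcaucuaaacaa
The annotations did not place the 3 hairpins in 1 transcript. In RefSeq, Mir216b lay inside the long noncoding gene Mir217hg (chr11:28730633-28751781), while Mir216a and Mir217 lay inside Gm40818 (chr11:28754078-28772168). In GENCODE M21, Mir216a and Mir217 lay inside the long noncoding gene Gm12082 (chr11:28751633-28815767) on the plus strand, and 0 of these 2 hairpins overlapped an exon of it. Another hairpin, Mir216c (chr11:28746198-28746266), is annotated on the minus strand, and all 69 of its bases lie inside Mir216b, as the reverse complement.

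**Figure D1:**
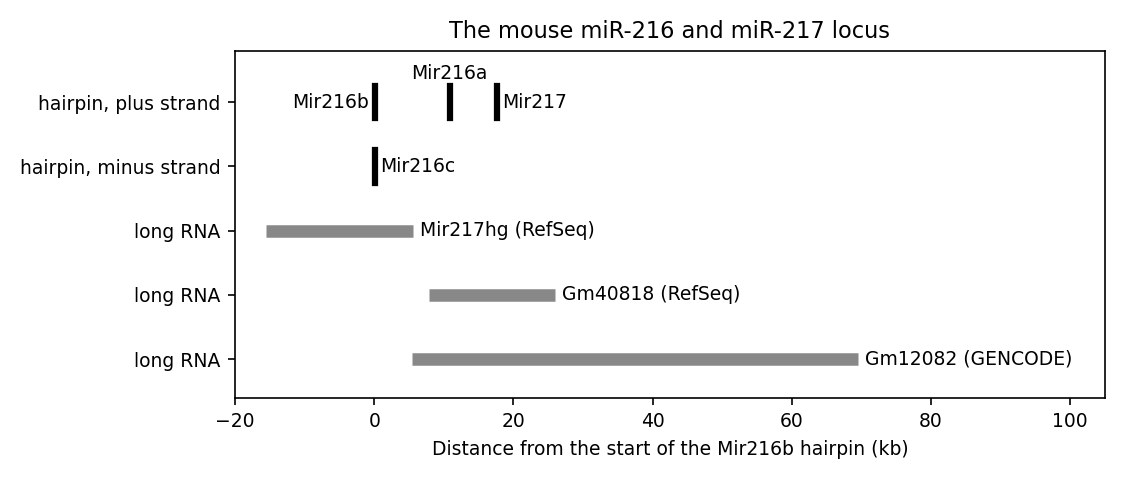
Map of the mouse locus, with distance from the start of the Mir216b hairpin in kb on the x axis, hairpins by strand in the upper rows and annotated long noncoding genes as bars in the lower rows. Mir216b and the other 2 plus-strand hairpins fall in different long genes in RefSeq, and the minus-strand Mir216c sits on top of Mir216b.

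The tables hold counts per mature name, with 24169628 to 28198305 counts per rat library and 27843590 to 30514632 per mouse library. Rat library r1 stood apart from the others: the chi-square per degree of freedom between libraries was 5084 for r1 against r2 and 4162 for r1 against r4, and 209.6 for r2 against r4. The mouse pairs lay between 102 and 126. CPM are counts per 1000000 counts of the library. For CPM of shared names, the total is that of the names in both tables, multiplied by a TMM factor (edgeR). The labelled tissue was checked with photoreceptor miRNAs. In CPM of shared names, miR-183-5p and miR-96-5p summed to 179023 to 383163 in rat libraries, against 351013 to 419575 in mouse libraries. The most abundant name was miR-182 in the rat table at 237210 CPM of all counts and miR-183-5p in the mouse table at 242124 CPM, far above any member described here. The labels do not say that each library came from a separate animal, so the p-values given below measure only how these libraries vary, and that may be technical.

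Together the members held a small part of the retinal miRNA reads, and less of it in rat. Their summed level was 58.2 (r1), 59.1 (r2) and 70.1 CPM (r4) in rat libraries, against 113.9 (m1), 112.2 (m3) and 113.8 CPM (m4) in mouse libraries, in CPM of all counts in each table. The means were 62.5 CPM ± 6.61 in rat and 113.3 CPM ± 0.944 in mouse (SD, n = 3 each). The mouse libraries lay within a narrow band, all above the rat libraries. Because these are bulk retinas, fewer cells that make a miRNA and less of it per cell cannot be told apart.

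Most of these reads were miR-217-5p, the arm that carries the seed of miR-217. Its count was 1040 (r1), 954 (r2) and 1356 (r4) in rat libraries, against 2255 (m1), 2374 (m3) and 2203 (m4) in mouse libraries. Scaled to all counts of the table, the rat libraries lay at 43.0, 37.7 and 48.1 CPM and the mouse libraries at 81.0, 77.8 and 78.2 CPM. No rat library reached the lowest mouse library. By mean level it ranked 211 of 764 names in rat and 162 of 1915 names in mouse. Its neighbours in level, picked as the names next above and below by mean, were miR-582-3p (43.3 CPM ± 3.77) and miR-126a-5p (42.9 CPM ± 24.6) in rat. In mouse they were miR-30b-3p (81.0 CPM ± 2.78) and miR-135b-5p (78.7 CPM ± 3.85; SD, n = 3 each).

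The next in level was miR-216b-5p. Its count was 144 (r1), 227 (r2) and 265 (r4) in rat libraries, against 395 (m1), 455 (m3) and 451 (m4) in mouse libraries. That is 5.96, 8.97 and 9.40 CPM of all counts in rat and 14.2, 14.9 and 16.0 CPM in mouse. The species did not overlap, and r1 was the lowest of the 6 libraries on this scale. Ranked by mean, it was name 316 in rat, next to let-7f-1-3p (8.29 CPM ± 1.72) and miR-376c-3p (7.82 CPM ± 3.92). In mouse it was name 278, next to miR-1983 (15.1 CPM ± 1.55) and miR-421-3p (15.0 CPM ± 2.09; SD, n = 3 each).

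Its paralog miR-216a-5p was the lowest of the 3 main 5p products. Its count was 69 (r1), 160 (r2) and 148 (r4) in rat libraries, against 278 (m1), 334 (m3) and 300 (m4) in mouse libraries. The rat libraries lay at 2.85, 6.33 and 5.25 CPM of all counts and the mouse libraries at 9.98, 10.9 and 10.6 CPM. Again every rat library was below every mouse library, with r1 the lowest. Ranked by mean, it was name 346 in rat, between miR-1247-3p (5.03 CPM ± 1.29) and miR-497-5p (4.52 CPM ± 2.26), and name 309 in mouse, between miR-326-3p (10.5 CPM ± 0.564) and miR-532-3p (10.4 CPM ± 0.646; SD, n = 3 each).

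Of the 3p arms of miR-216a and miR-216b, the first lay lower in rat by counts, as the 5p arms did, and the second overlapped. For miR-216a-3p, an arm with its own seed, the count was 120 (r1), 99 (r2) and 112 (r4) in rat libraries, against 199 (m1), 193 (m3) and 189 (m4) in mouse libraries. The counts of the species did not overlap, nor did the CPM of all counts. In CPM of shared names, after TMM, r1 reached 9.67, just above the lowest mouse library, m4, at 9.60. The TMM factor was 0.806 for r1 and 0.967 for m4, and this overlap depends on that scaling. For miR-216b-3p the count was 34 (r1), 54 (r2) and 92 (r4) in rat libraries, against 40 (m1), 61 (m3) and 54 (m4) in mouse libraries. The means of miR-216b-3p were 2.27 CPM ± 0.935 in rat and 1.78 CPM ± 0.304 in mouse (CPM of all counts, SD, n = 3 each), and the libraries of the species overlapped.

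The remaining names were close to 0. The minor arm miR-217-3p had 0 (r1), 1 (r2) and 3 (r4) counts in rat libraries, against 5 (m1), 7 (m3) and 11 (m4) in mouse libraries. The rat sum of 4 counts and the mouse sum of 23 did not allow a fold to be given with any precision. The minus-strand miR-216c-5p had 1 count, in m3, and miR-216c-3p had 0 in the 3 mouse libraries. A count of 0 allows up to 3 counts, or 0.108 CPM in m1, 0.0983 CPM in m3 and 0.106 CPM in m4, for counting error only. By position, miR-216c-5p shares 22 bases with miR-216b-3p on the other strand.

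**Figure D2:**
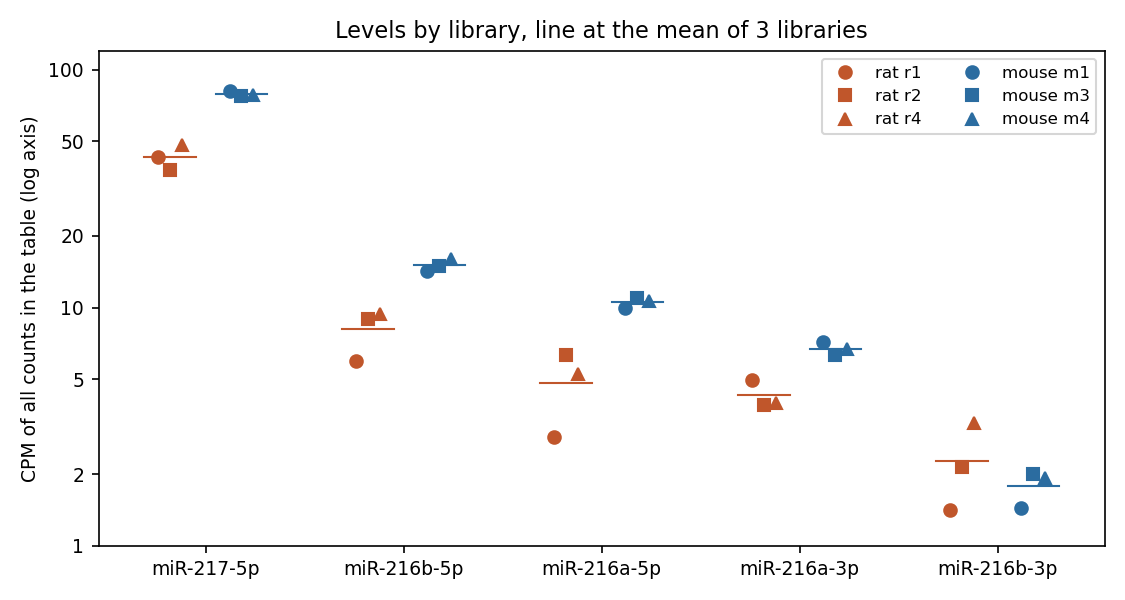
Level of 5 names of the locus in each library, as CPM of all counts in the table on a log axis, with rat left of mouse, 1 symbol per library and a line at the mean of 3 libraries. For the 5p names and miR-216a-3p all 3 rat libraries lie below all 3 mouse libraries; for miR-216b-3p the species overlap.

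Within each species the order of the 3 main products was the same, miR-217-5p, then miR-216b-5p, then miR-216a-5p, in all 6 libraries. Small RNA libraries join adapters to some sequences better than to others, so an order of reads need not be the order of molecules. The ratio of miR-217-5p to miR-216b-5p counts was 7.22 (r1), 4.20 (r2) and 5.12 (r4) in rat libraries, against 5.71 (m1), 5.22 (m3) and 4.88 (m4) in mouse libraries. The ratio of miR-216b-5p to miR-216a-5p counts was 2.09, 1.42 and 1.79 in the rat libraries, against 1.42, 1.36 and 1.50 in the mouse libraries. Both ratios overlapped between the species. By mean, miR-216a-5p and miR-216a-3p were at 4.81 CPM ± 1.78 and 4.28 CPM ± 0.591 in rat. In mouse they were at 10.5 CPM ± 0.492 and 6.73 CPM ± 0.411 (SD, n = 3 each). The ratio of miR-216a-5p to miR-216a-3p counts was 0.575 (r1), 1.62 (r2) and 1.32 (r4) in rat libraries. It was 1.40 (m1), 1.73 (m3) and 1.59 (m4) in mouse libraries, so only in r1 did the 3p arm exceed the 5p arm.

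As a share of the summed 5p counts, which does not depend on any scaling between libraries, the means of the species differed by less than the spread of the rat libraries. The name miR-217-5p held 76.9% ± 5.93 in rat and 75.5% ± 1.29 in mouse, miR-216b-5p held 14.5% ± 2.75 in rat and 14.4% ± 0.889 in mouse, and miR-216a-5p held 8.60% ± 3.22 in rat and 10.1% ± 0.538 in mouse (SD, n = 3 each). The rat libraries varied more. In r1 miR-217-5p held 83.0% of the sum and miR-216a-5p held 5.51%, while in r2 they held 71.1% and 11.9%. All mouse shares of these 2 names lay between those of r1 and r2.

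**Figure D3:**
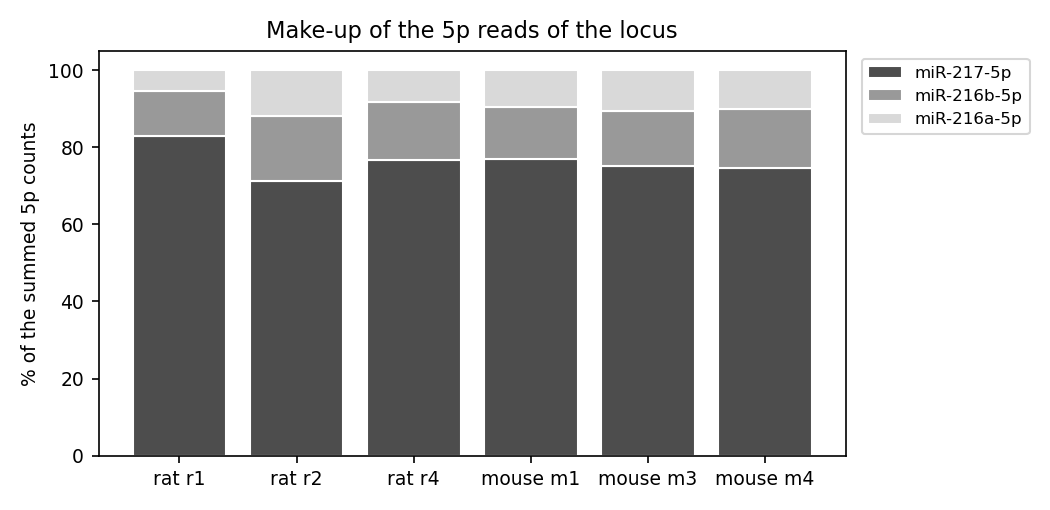
Share of miR-217-5p, miR-216b-5p and miR-216a-5p in the summed 5p counts of the locus, 1 bar per library, rat on the left and mouse on the right. The share of miR-217-5p runs from 71.1% to 83.0% in rat and from 74.6% to 77.0% in mouse.

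The size of the difference between species was taken from an edgeR quasi-likelihood fit over the 398 names shared by both tables that passed a filter on low counts, scaled by TMM factors on the shared totals. Of the 6 shared members, 5 passed and miR-217-3p did not. On this scale the log2 difference, rat minus mouse, was -1.02 ± 0.25 for miR-217-5p, -1.11 ± 0.17 for miR-216b-5p and -1.39 ± 0.19 for miR-216a-5p (SE, 3 libraries per species). These put the rat level at 49.2%, 46.4% and 38.2% of the mouse level. For miR-216a-3p it was -0.78 ± 0.32, and for miR-216b-3p it was 0.10 ± 0.26. The median over all 398 names was 0.078. All 3 rat libraries lay below all 3 mouse libraries for 3 of the 5 members, the 5p names, where 30.4% of the 398 names did so. They lay above for 0 of the 5 members and for 29.4% of the 398 names. In the fit, 24.4% of the 398 names were called lower in rat (adjusted p below 0.05). Since the members were chosen on this contrast, nothing is read from their count.

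The scaling changes the place of r1 among the rat libraries. On the shared-name scale, after TMM, r1 held the most miR-217-5p of the rat libraries, at 83.8 CPM against 42.1 in r2 and 53.9 in r4. The mouse libraries held 111.8 to 130.6 CPM. On this TMM scale r1 also held the most miR-216b-5p in rat, 11.6 CPM against 10.02 in r2 and 10.5 in r4. For that name the mouse libraries held 22.9 to 23.5 CPM. For miR-216a-5p the rat libraries held 5.56, 7.06 and 5.88 CPM, against 15.2 to 17.2 CPM in mouse libraries. The TMM factor of r1 was 0.806, beside 1.29 and 1.32 for r2 and r4 and 0.864 to 0.967 for the mouse libraries. Without r1 the log2 differences were -1.34 (miR-217-5p), -1.17 (miR-216b-5p), -1.32 (miR-216a-5p) and -1.23 (miR-216a-3p), so the 5p names lay closer together and miR-216a-3p lay beside them. In CPM of all counts, the rat means were 54.4%, 53.9% and 45.7% of the mouse means for miR-217-5p, miR-216b-5p and miR-216a-5p, and 63.7% for miR-216a-3p and 127.1% for miR-216b-3p.

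**Figure D4:**
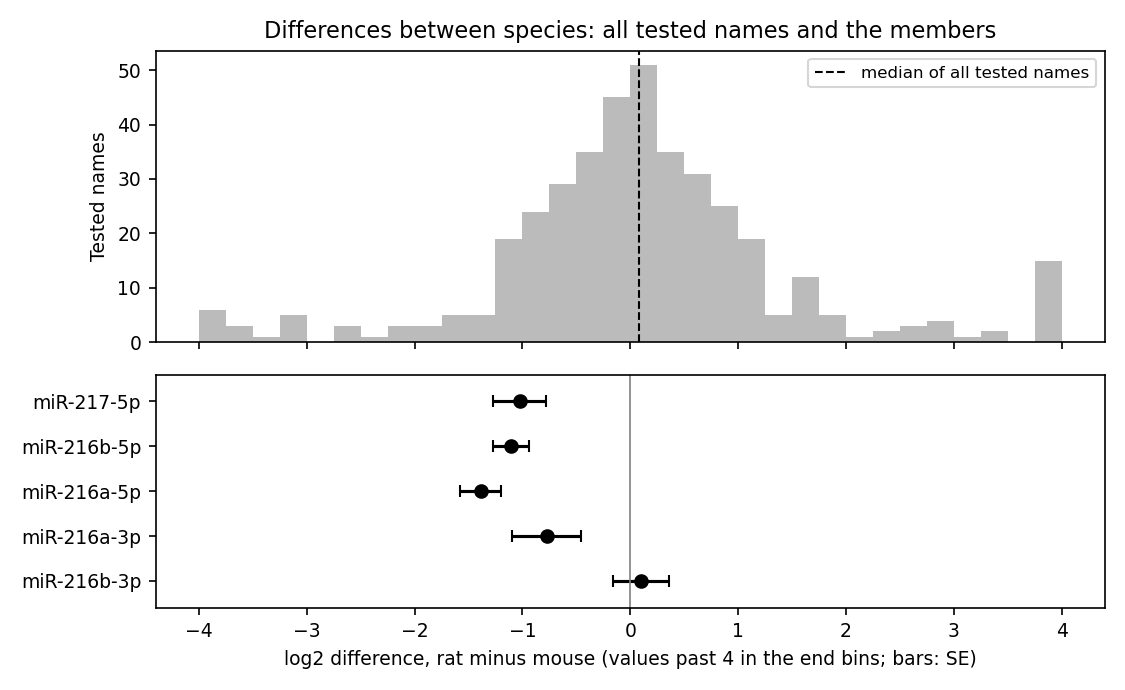
Upper panel: number of names by log2 difference, rat minus mouse, for the 398 names of the fit, with their median as a dashed line. Lower panel: the 5 members in the fit with SE bars, where the 3 main 5p names lie between -1.02 and -1.39 and miR-216b-3p lies at 0.10.

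The use of the arms was compared within each hairpin as the share of 3p reads among both arms. For miR-216b this share was 19.1% (r1), 19.2% (r2) and 25.8% (r4) in rat libraries, against 9.20% (m1), 11.8% (m3) and 10.7% (m4) in mouse libraries. The means were 21.4% ± 3.82 in rat and 10.6% ± 1.32 in mouse (SD, n = 3 each), and every rat library lay above every mouse library. The 95% Wilson intervals, which cover counting error only, ran from 14.0% to 25.5% for r1 and from 9.31% to 14.9% for m3, so these 2 libraries overlap in counting error. Of 169 hairpins whose arms were all listed in rat and mouse and summed to at least 50 counts in every library, 27.2% had a 3p share that was higher in all rat libraries, and 16.0% had one that was lower. Of the 3 hairpins of the locus, miR-216b was among those higher and miR-217, on very few 3p reads, among those lower.

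For miR-216a the 3p share was 63.5% (r1), 38.2% (r2) and 43.1% (r4) in rat libraries, against 41.7% (m1), 36.6% (m3) and 38.7% (m4) in mouse libraries. Here r1 stood alone: its 95% Wilson interval of 56.4% to 70.02% lay above the values of the other 5 libraries, and it was the only library with more reads from the 3p arm than from the 5p arm. The other 2 rat libraries lay within or next to the mouse range. For miR-217 the 3p share was at most 0.221% in a rat library and at least 0.221% in a mouse library. These shares rest on 0 to 11 reads of the 3p arm, and their intervals overlapped, with upper ends of 0.368% to 0.647% in rat and lower ends of 0.0945% to 0.278% in mouse.

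**Figure D5:**
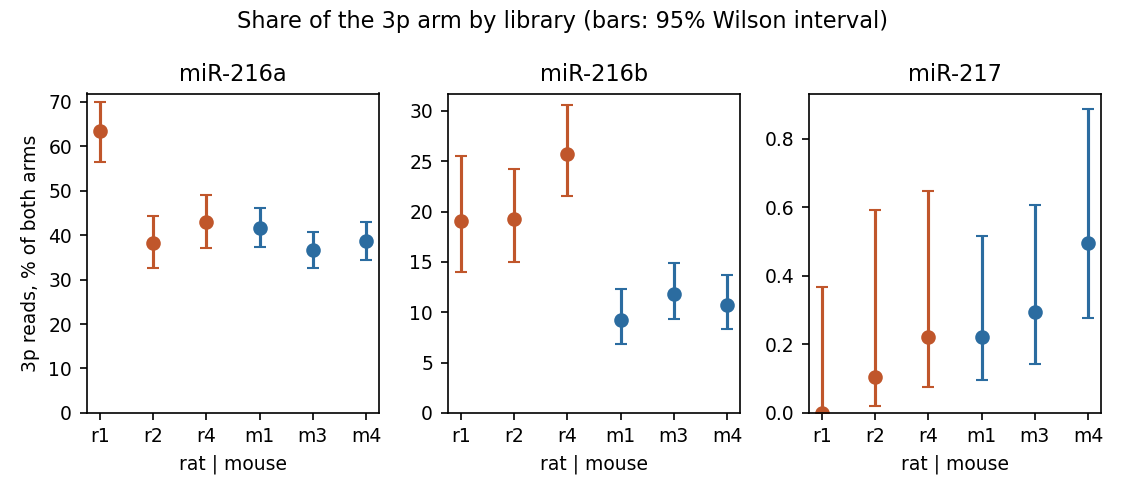
Share of 3p reads among the reads of both arms for miR-216a, miR-216b and miR-217, in percent on separate y axes, by library with rat on the left, with 95% Wilson intervals as bars. The 3p share of miR-216b is 19.1% or more in each rat library and 11.8% or less in each mouse library, and that of miR-216a is high in r1 alone.

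The names whose levels ran most like the mean of the 3 main 5p products over the 6 libraries, by Pearson r of log2 CPM, were miR-92b-3p (r = 0.997), miR-666-5p (0.996), miR-370-3p (0.996), miR-212-5p (0.995) and miR-501-3p (0.994). With 3 libraries per species such an r mostly marks names that were low in all 3 rat libraries and even among the mouse libraries, and it is given as a description. Of these, miR-92b-3p was nearest in size, with 126.5 CPM ± 11.0 in rat and 274.5 CPM ± 4.24 in mouse, and miR-666-5p differed most, with 5.23 CPM ± 1.79 in rat and 62.3 CPM ± 1.10 in mouse (CPM of shared names, SD, n = 3 each).

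Other miRNAs that are abundant in pancreas, either in its acini or its islets, were looked at as a list. Of 9 listed names 6 could be tested, and 3 were higher, 0 lower and 3 not called in rat, where 25.6% of all tested names were called higher and 24.4% lower. The median log2 difference was 0.81, beside 0.078 for all tested names. The islet miRNA miR-375-3p was higher in rat, at 1579 CPM ± 468 in rat and 569.0 CPM ± 25.8 in mouse (SD, n = 3 each; log2 difference 1.47 ± 0.22, adjusted p = 0.000566, edgeR quasi-likelihood test). The acinar and islet miRNA miR-148a-3p (0.75 ± 0.54) and the islet miRNA miR-7a-5p (-0.048 ± 0.29) were not called, nor was the epithelial miR-200b-3p (0.74 ± 0.37). The name miR-802-5p, singled out after its values were seen, did not pass the filter on low counts. It was called lower with no filter (log2 difference -2.76) and without r1 (-3.15), r2 (-2.78) or r4 (-2.31). It passed the filter only when a rat library was left out, through the mouse libraries where it was higher, and not without m1, m3 or m4. Nothing is read from these calls. Without r1 3 names of the list were called lower: miR-148a-3p, whose sign turned (-0.35), miR-7a-5p (-0.50) and miR-802-5p. The rat libraries of miR-148a-3p ran from 15194 to 75488 CPM of shared names. Without r2 or r4 1 name was called lower, miR-802-5p, and without m4 5 were called higher. These 5 included miR-141-3p, which did not pass the filter in the main fit. It passed only without r1, m1, m3 or m4. It was called higher in each of these and with no filter, and nothing is read from it. Of the 3 names called higher in the main fit, miR-200c-3p was not called without r4, m1 or m3. Both names were singled out after their values were seen.

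Of 8 other miRNAs known to target Sirt1, the target of miR-217 named above, 7 could be tested, and 3 were lower, 0 higher and 4 not called in rat, where 24.4% of all tested names were called lower and 25.6% higher. The median of the list was -0.39, beside 0.078 for all tested names. Those called lower were miR-181a-5p (-0.63 ± 0.18, adjusted p = 0.0162), miR-132-3p (-0.54 ± 0.20, adjusted p = 0.0494) and, named after its value was seen, miR-199a-5p (-0.93 ± 0.21, adjusted p = 0.00639; edgeR). Of the others, miR-22-3p differed by -0.21 ± 0.14 and miR-135a-5p by 0.13 ± 0.24. These calls leaned on the scaling: with library totals alone 0 of the 7 were lower, and without m1, m3 or m4 only miR-199a-5p was. Without r2 or r4, and with DESeq2, miR-132-3p was not called, and without r1 miR-135a-5p was called higher and miR-22-3p lower.

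Markers of some retinal cell types also moved between the species. Of 3 photoreceptor names 2 could be tested, miR-183-5p (log2 difference -0.69 ± 0.32) and miR-96-5p (0.13 ± 0.17), and 0 were called higher or lower. Without r1, miR-183-5p was called lower. The inner retinal and pan-neuronal miRNAs miR-124-3p, miR-181a-5p and miR-181b-5p, 3 of 3 called lower where 24.4% of all tested names were, summed to 36414 to 47881 CPM in rat libraries, against 67181 to 71288 CPM in mouse libraries. The pigment epithelium miRNAs miR-204-5p and miR-211-5p, 2 of 2 called higher where 25.6% of all tested names were, summed to 29796 to 47748 CPM in rat libraries, against 22215 to 23964 CPM in mouse libraries. With library totals alone 0 of the 3 neuronal names were called lower, and without m1, m3 or m4 miR-181a-5p was not called. Of 3 Mueller glia names 1 was called higher, miR-204-5p, which is also on the pigment epithelium list. The others, miR-125b-5p (-0.48 ± 0.23) and miR-99a-5p (0.15 ± 0.21), were not called. Without r1 or r2 miR-125b-5p was called lower, and with library totals alone miR-99a-5p was called higher. Of 2 tested vascular names 1 was called higher (miR-143-3p), and miR-126a-3p (-0.13 ± 0.15) was not called. The calls of miR-204-5p and miR-143-3p did not hold without m1, m3 or m4. Of 3 red blood names only 1 could be tested, miR-144-3p, which was near 0 in every library, at most 1.16 CPM. The red blood names miR-451a and miR-486-5p were not tested under any setting, so the level of red blood miRNAs is not known from this list. The part of these shifts in the lower 5p levels of miR-216a, miR-216b and miR-217 was not tested.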

How the data were processed

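Per the labels' protocols, eyes were stored in RNAlater, retinal RNA was purified (miRNeasy mini kit), and Illumina libraries were sequenced from 1 end for 50 bases on a HiSeq-2500. The deposited tables, 1 per species, hold the authors' raw counts for each mature miRNA name. Read trimming, the aligner, mismatches, the miRNA release and the handling of reads with several matches are not given in the sources. Each column was assigned to its species, without a sample number. Names were joined without the species prefix (542 shared). The rat sequences behind the names were not compared with the mouse sequences.

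The counts of shared names were fitted with edgeR 4.0.16 in R 4.3.3 (filterByExpr, TMM, quasi-likelihood F test, species as the only term, Benjamini-Hochberg adjustment over 398 names). Members and lists were chosen with earlier results of these data known. The names given are all members, the 5 names most alike, the neighbours in level and up to 4 of the most abundant tested names of each list (fewer where values repeat). Intervals on shares are Wilson intervals at 95%, and a count of 0 is given an upper limit of 3 counts. Reads carry no molecular identifiers. A further list of miRNAs is not reported here. Alternatives were library totals, DESeq2 1.42.0, no filter, relaxed names (586) and leaving out each library.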

Additional observations from a re-analysis of the deposited data

How the results depend on the processing

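Depth limits miR-217-3p and miR-216c, which had 11 counts or fewer in every library. No paired analysis was possible because the columns carry library numbers that are not the replicate numbers of the labels. Of 211 recomputed values over 35 results, 184 kept their direction and stayed within a set limit. The limit was the replicate SD, the median SE for list medians, or 1.5 times the count. A mean of 3 libraries cannot move by as much as their SD when 1 is left out. Mean levels, arm shares and 5p shares could thus only count as kept when 1 library was left out. These values are part of the 184, so nothing is read from them or from the 184 as a share. Of the values that were not kept, 26 moved past the limit and 1 turned its sign. The 3 main 5p names stayed below 0 under every alternative run. They were chosen as lower in rat in these same libraries, so nothing is read from that.

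With library totals of shared names, which moved the median of all names to 0.43, the log2 difference was -1.02 for miR-216a-5p, -0.78 for miR-216b-5p and 0.46 for miR-216b-3p, 43 names were called lower in rat (97 with TMM), and 74.7% of called names were higher (51.3% with TMM). In that setting 0 of the Sirt1 list were lower, with a median of 0.016. In CPM of all counts, a scale chosen after seeing the data, miR-216a-5p differed by -1.13 and miR-216b-5p by -0.89. With no filter 1 name of the pancreas list was lower, the miR-802-5p that did not pass the filter.

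In CPM of shared names after TMM the rat and mouse means were 59.9 and 121.6 for miR-217-5p, 10.7 and 23.1 for miR-216b-5p and 6.16 and 10.4 for miR-216a-3p. The mouse means were 16.2 for miR-216a-5p and 2.73 for miR-216b-3p.

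Leaving out 1 library gave log2 differences of -1.34 to -0.81 (miR-217-5p), -1.17 to -1.05 (miR-216b-5p), -1.49 to -1.32 (miR-216a-5p) and -1.23 to -0.57 (miR-216a-3p). The sign of miR-216b-3p turned without r4, in a range of -0.093 to 0.25. The pancreas list had 0 to 3 lower, 2 to 5 higher and a median of 0.69 to 1.31. The Sirt1 list had 1 to 4 lower and 0 to 1 higher. Over all names 73 to 142 were lower and 78 to 151 higher. The cause of these shifts was not tested.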
